A study of Mus musculus with 24 samples.

Results

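The MHC class II genes examined here are 7 of the 47729 gene IDs in the deposited tables of retinal microglia. They were chosen by name, with earlier results of these data known. H2-Aa, H2-Ab1 and H2-Eb1 encode chains of the classical class II molecules, Cd74 the invariant chain, H2-DMa and H2-DMb1 the chains of H2-DM, and Ciita the class II transactivator. The RNA came from microglia, the resident macrophages of nervous tissue, sorted from single mouse retinas as CD11b+ Ly6c- Fcrls+ cells, with 100 to 600 cells collected per retina. Mice of the inbred DBA/2J strain acquire an inherited glaucoma with age. The design asks how their retinal microglia differ from those of a control strain, and with age and disease grade.

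There were 24 libraries, 1 per retina, from 15 animals in 3 groups of 5. The 12-month DBA/2J group (Gpnmb-/- Tyrp1b-/-) had 10 retinas. The labels grade 3 of these retinas, from 2 animals, as mild (also marked NOE). They grade 4 retinas, from 3 animals, as moderate, and the other 3, from 2 animals, as severe. The 12-month DBA/2J Gpnmb+ group (Gpnmb+/+ Tyrp1b-/-) had 9 retinas, and the 6-month DBA/2J group (Gpnmb-/- Tyrp1b-/-), labelled as early disease, had 5 retinas. All groups thus carry the Tyrp1b alteration, no animal was treated, and the control differs in Gpnmb alone as labelled. Both eyes of an animal share their source, so tests used the animal as replicate, and values per retina are descriptive.

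Class II molecules are heterodimers of an alpha and a beta chain that display peptides from the endosomal pathway to CD4+ T cells. The invariant chain escorts new dimers to endosomes and blocks their groove until proteases degrade it, and H2-DM then exchanges its last fragment for peptide. Transcription of these genes depends on CIITA, which is itself induced by interferon gamma and is recruited to proteins bound at a conserved promoter module that includes the X and Y boxes. Resting microglia express little class II, and its rise is a widely used sign of microglial activation, while border-associated macrophages and dendritic cells can express it at high levels.

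The promoter windows of 3 genes are shown because they share a spaced pair of short motifs. Windows of 300 bases, from 250 before to 50 after an annotated start, were taken from RefSeq (build GRCm38.p6), where 4 of the 7 genes had at least 1, and those of H2-Ab1, Cd74 and Ciita were not used here. The window of H2-Aa is chr17:34287774-34288073 on the minus strand, that of H2-Eb1 chr17:34305617-34305916 on the plus strand and that of H2-DMb1 chr17:34152941-34153240 on the plus strand, each printed 5′ to 3′. Capitals mark GNAACT and, 26 or 27 bases after it, ATTGG, the letters of the core of the Y box.
H2-Aa: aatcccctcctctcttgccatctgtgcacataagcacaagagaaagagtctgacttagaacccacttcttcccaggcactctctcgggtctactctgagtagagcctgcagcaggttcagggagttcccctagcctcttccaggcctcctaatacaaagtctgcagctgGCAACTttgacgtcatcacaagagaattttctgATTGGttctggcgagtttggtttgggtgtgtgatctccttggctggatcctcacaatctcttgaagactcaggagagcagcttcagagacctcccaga
H2-Eb1: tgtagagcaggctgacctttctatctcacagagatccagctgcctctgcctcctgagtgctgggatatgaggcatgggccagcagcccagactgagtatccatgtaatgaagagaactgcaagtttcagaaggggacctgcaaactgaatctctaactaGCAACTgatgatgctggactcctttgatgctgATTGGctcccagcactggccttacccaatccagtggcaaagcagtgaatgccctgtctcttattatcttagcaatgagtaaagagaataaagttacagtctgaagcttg
H2-DMb1: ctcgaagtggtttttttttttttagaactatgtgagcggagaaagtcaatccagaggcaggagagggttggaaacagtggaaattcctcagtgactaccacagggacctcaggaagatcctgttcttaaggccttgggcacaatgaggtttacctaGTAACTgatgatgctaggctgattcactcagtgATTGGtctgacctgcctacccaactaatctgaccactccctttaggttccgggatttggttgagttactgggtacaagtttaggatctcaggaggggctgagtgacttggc
Both strands were searched. The pair began at -81 and -48 in H2-Aa, at -91 and -59 in H2-Eb1, and at -94 and -61 in H2-DMb1, counted from the annotated start. Neither window of H2-DMa, at chr17:34122582-34122881 and chr17:34125268-34125567, held it. No other start of that gene was searched, so its promoter is not shown to lack the pair. Of 32851 windows, 34 (0.103%) held the spaced pair, against 42.8% with GNAACT and 37.4% with ATTGG alone. They belonged to 33 of 27025 genes, among them the neighbouring class II gene H2-Eb2. The letters and the spacing were read off these windows, so the match is a description and not a site or a cause. The reference is that of C57BL/6J, whereas DBA/2J carries another haplotype of these polymorphic genes, and the effect of that difference on the windows or on the read counts was not tested.

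**Figure D1:**
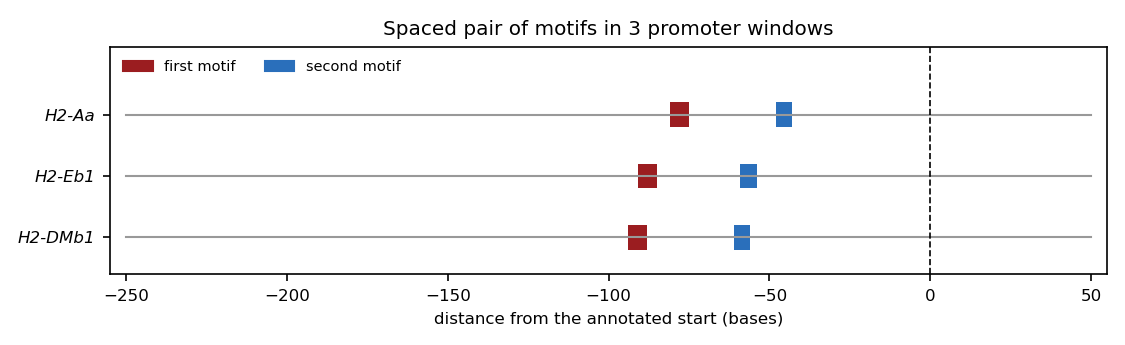
Position of the spaced pair of motifs in 3 promoter windows, as distance in bases from the annotated start (dashed line), with 1 row per gene. The first motif lies between -94 and -81 and the second between -61 and -48 in all 3 windows.

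The libraries held 977886 to 20081114 counts each and 3469 to 16716 genes with a count. Fewer than 10000 genes had a count in 5 of the 9 Gpnmb+ retinas and in no other retina. These were both retinas of Gpnmb+ animals 1 and 2 and the right retina of animal 3. A count of 0 therefore allows up to 0.149 to 3.07 counts per 1000000 of the library (CPM), by the limit of 3 counts and for counting error only. Of the 8 microglia markers, 7 had reads in all 24 retinas, whereas Fcrls, the gene of the sorted surface protein, had reads in 18 of 24 and at most 106 CPM. The summed CPM of the 8 markers ranged from 11739 to 31218 in Gpnmb+, from 12540 to 34016 in 12-month and from 29733 to 34326 in 6-month DBA/2J retinas. In bulk RNA, a change in the number of cells of a type and a change in RNA per cell cannot be told apart.

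Per length and library, the class II genes spanned a wide range of levels. The median level in TPM (transcripts per 1000000, corrected for gene length) over the 24 retinas was 545 for H2-DMa, 220 for H2-Ab1, 89.8 for H2-DMb1, 84.8 for Cd74, 39.4 for H2-Eb1, 37.7 for H2-Aa and 0 for Ciita. In this order the interquartile ranges of neighbours did not overlap for H2-DMa (496 to 624 TPM) and H2-Ab1 (159 to 337 TPM), or for H2-Ab1 and H2-DMb1 (75.02 to 119 TPM). They did overlap between H2-DMb1 and Cd74 (29.5 to 170 TPM), Cd74 and H2-Eb1 (3.23 to 68.4 TPM), and H2-Eb1 and H2-Aa (1.18 to 143 TPM), so the order among these 4 is not beyond the spread. The alpha and the beta chain of the A molecule thus differed in median level, and H2-Aa was without reads in 6 retinas where H2-Ab1 lacked them in 1. H2-DMa and H2-DMb1 had reads in all 24 retinas.

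H2-Aa, the alpha chain of the A molecule (ENSMUSG00000036594, GRCm38 chr17:34282744-34287823, minus strand), varied most between retinas in its presence. Its level was 0, 69.1 and 255 CPM (lowest, median and highest) in the 10 retinas of 12-month DBA/2J, and 0, 10.6 and 334 CPM in the 9 of Gpnmb+. The 5 retinas at 6 months had 0, 6.64, 18.4, 30.2 and 111 CPM. The groups overlapped over nearly their whole range. H2-Aa had no reads in 1 retina of 12-month DBA/2J, 4 of Gpnmb+ and 1 at 6 months. Several retinas of 12-month DBA/2J were above 100 CPM. In Gpnmb+ and at 6 months only the highest retina was, with the next at 68.3 and 30.2 CPM.

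H2-Ab1, the beta chain of the same molecule (ENSMUSG00000073421, chr17:34257689-34269419, plus strand), was present in 23 of 24 retinas. It stood at 93.1, 214 and 422 CPM (lowest, median and highest) in 12-month DBA/2J and at 0, 146 and 1151 CPM in Gpnmb+. The 6-month retinas had 108, 113, 125, 166 and 253 CPM. The group ranges overlapped, and the lowest and the highest retina of the series were the right and the left eye of the same Gpnmb+ animal, number 2.

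H2-Eb1, the beta chain of the E molecule (ENSMUSG00000060586, chr17:34305867-34316674, plus strand, with the antisense gene Gm20513 overlapping it), followed H2-Aa. It ranged over 0.161, 50.8 and 286 CPM in 12-month DBA/2J and over 0, 27.5 and 622 CPM in Gpnmb+ (lowest, median and highest). The 6-month retinas had 0.142, 14.8, 16.4, 27.2 and 75.7 CPM. In 6 of the 24 retinas H2-Eb1 had at most 3 counts, and these retinas lay in all 3 groups. How reads of H2-Eb1 and of its antisense partner were separated is not given in the sources used here.

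Cd74, the invariant chain (ENSMUSG00000024610, chromosome 18), had reads in 22 retinas. It ranged over 26.96, 75.4 and 322 CPM in 12-month DBA/2J and over 0, 62.2 and 728 CPM in Gpnmb+ (lowest, median and highest). At 6 months the values were 10.5, 19.7, 21.2, 104 and 208 CPM. In 3 of the 5 retinas at 6 months Cd74 was below every retina of 12-month DBA/2J, while the other 2 lay within the 12-month range.

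Of the H2-DM genes, whose proteins load peptide, H2-DMa was the steadier. H2-DMa (ENSMUSG00000037649, chr17:34119541-34139101, plus strand, overlapping Brd2 and antisense genes) stood at 405, 529 and 1611 CPM in 12-month DBA/2J and at 223, 467 and 663 CPM in Gpnmb+ (lowest, median and highest), and at 463, 471, 518, 555.3 and 668 CPM at 6 months. H2-DMb1 (ENSMUSG00000079547, chr17:34153072-34160230, plus strand) stood at 49.2, 94.1 and 143 CPM, and at 0.729, 73.0 and 217 CPM, in the same 2 groups, with 56.5, 59.6, 62.3, 82.7 and 95.3 CPM at 6 months. All groups overlapped for both genes. The SD of log2 CPM over the 24 retinas was 2.93 for H2-Aa, 2.77 for H2-Eb1, 2.40 for Cd74 and 1.76 for H2-Ab1, against 0.52 for H2-DMa and 1.54 for H2-DMb1. H2-DMb1 and its near copy H2-DMb2 can share reads, so the split between them is uncertain. Nor do the sources used here say how reads of H2-DMa and of the genes overlapping it were separated.

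Ciita, the transactivator (ENSMUSG00000022504, chr16:10480059-10528418, plus strand, overlapping Dexi), had reads in 5 of the 24 retinas. In 12-month DBA/2J these were the right and left retinas of animal 3, both graded severe, with 150 and 225 counts (14.1 and 11.2 CPM), and the left, moderate retina of animal 5 with 80 counts (5.06 CPM). At 6 months animal 1 had 150 counts (8.68 CPM) and animal 5 had 2 counts. None of the 9 Gpnmb+ retinas had a read, which allows up to 0.202 to 3.07 CPM per retina. The 4 retinas with 80 or more counts were among the 6 with the highest summed CPM of H2-Aa, H2-Ab1, H2-Eb1 and Cd74. The retina with the highest sum of all, the left one of Gpnmb+ animal 2, had no Ciita read at a limit of 0.803 CPM.

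**Figure D2:**
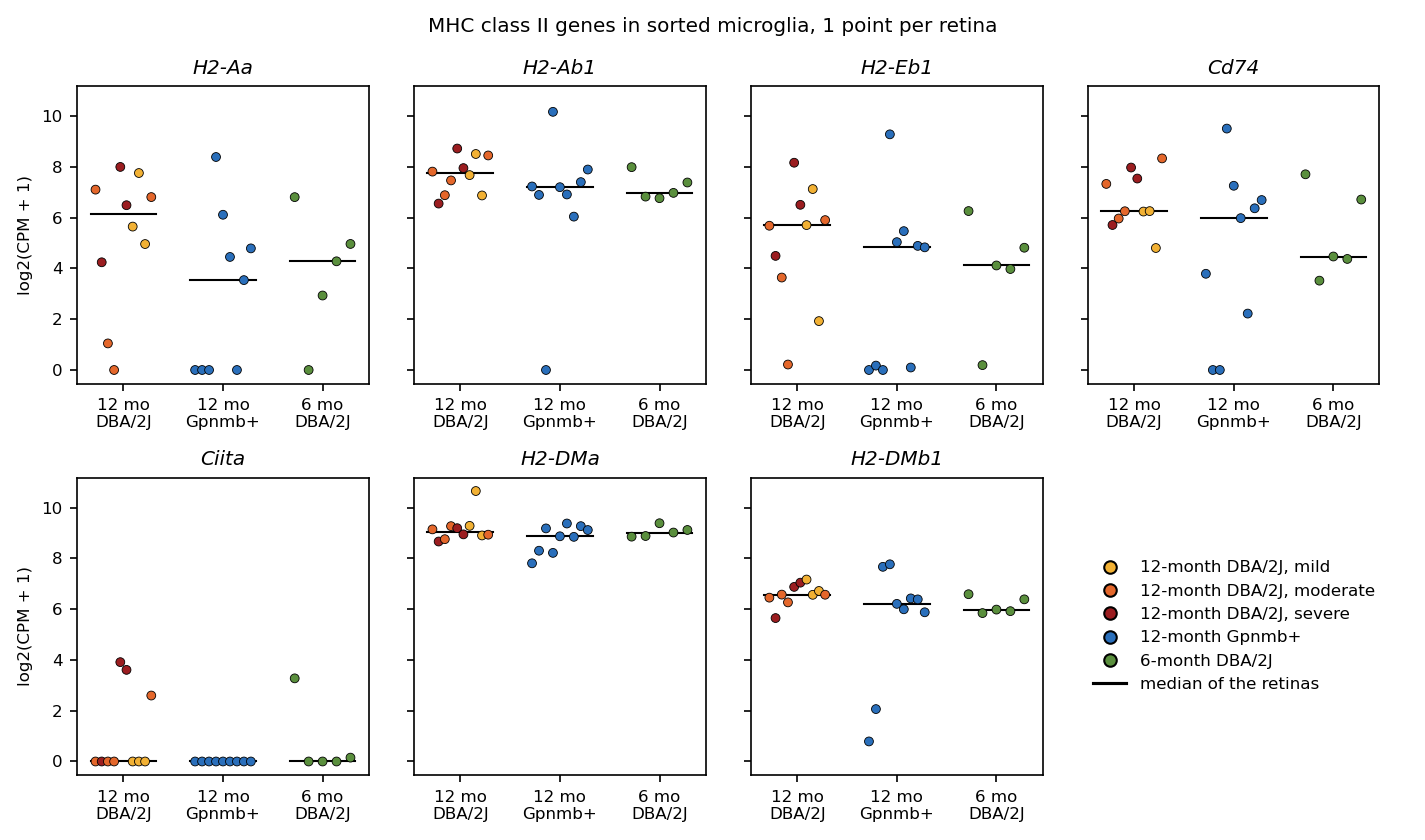
Level of each of the 7 genes as log2(CPM + 1), with 1 point per retina, coloured by grade or group, and a line at the median of the group's retinas. H2-DMa and H2-DMb1 stayed in a narrower band than H2-Aa, H2-Eb1 and Cd74, and 1 Gpnmb+ retina lay highest for H2-Aa, H2-Ab1, H2-Eb1 and Cd74.

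Single retinas carried much of the class II signal. The summed CPM of H2-Aa, H2-Ab1, H2-Eb1 and Cd74, used as a class II sum, was 2835 in the left retina of Gpnmb+ animal 2 (3737654 counts, 7134 genes) and 0 in its right retina (977886 counts, 3469 genes). Next came the right retina of 12-month DBA/2J animal 3 (severe, 1213 CPM), the left ones of animal 5 (moderate, 841 CPM) and animal 4 (mild, 793 CPM), and the retina of 6-month animal 1 (648 CPM). High sums thus occurred in all 3 groups and all 3 grades. The lowest sums above 0 were 68.6 CPM in Gpnmb+ animal 4, 118 CPM in the left retina of Gpnmb+ animal 1, 123 and 152 CPM in 6-month animals 2 and 3, and 162 CPM in the right retina of Gpnmb+ animal 1. In these 3 Gpnmb+ retinas H2-Ab1 alone made up most of the sum, with 64.9, 118 and 149 CPM.

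Between 12-month DBA/2J and Gpnmb+ microglia, no class II gene passed the test. Counts were summed over the eyes of an animal and fitted with edgeR's quasi-likelihood test over 12977 genes, of which 6 of the 7 passed the filter on low counts and Ciita did not. The mean level per animal was 75.2 ± 53.2 CPM for H2-Aa in DBA/2J and 62.0 ± 107 CPM in Gpnmb+ (SD, n = 5 each). For Cd74 these were 128 ± 63.0 and 149 ± 226 CPM, and for H2-DMa 585 ± 177 and 459 ± 114 CPM. With edgeR, 0 genes of the whole table were called at an adjusted p of 0.05 (0%), and none of the 6 had an unadjusted p below 0.05, against 5.21% of all genes. DESeq2 called 231 genes (1.35%) and limma's voomLmFit 8 (0.0607%), of which 1 and 0 were class II genes.

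The log2 fold changes of 12-month DBA/2J over Gpnmb+ were 0.28 ± 1.58 for H2-Aa, -0.37 ± 0.51 for H2-Ab1, -0.77 ± 1.43 for H2-Eb1 and -0.21 ± 0.98 for Cd74 (± SE), all with an adjusted p of 0.999 in edgeR. H2-DMa was at 0.35 ± 0.22 and H2-DMb1 at 0.32 ± 0.60. The 95% intervals were wide for the chains, from -3.03 to 3.60 for H2-Aa, and narrower for H2-DMa, from -0.12 to 0.82. The median over the 6 genes was 0.03, beside 0.05 over all genes tested, and 3 of the 6 were above 0, as were 52.5% of all genes. For none of the 6 did the 5 animals of one group lie outside those of the other, which held for 0.832% of all genes upward and 0.285% downward. The gene called by DESeq2 was Ciita (adjusted p = 7.478e-08), with reads in 2 of 5 DBA/2J animals and none in Gpnmb+. Its fitted fold change against a group at 0 depends on the model and is not given.

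The direction for H2-Ab1, H2-Eb1 and Cd74 depended on 1 retina and on the model. With that retina kept, voomLmFit over single retinas gave 0.75, 2.71 and 2.46 for these genes. Without the left retina of Gpnmb+ animal 2, a choice made after seeing the data, the log2 fold changes were 2.66 ± 1.65 for H2-Aa, 0.94 ± 0.75 for H2-Ab1, 2.23 ± 1.43 for H2-Eb1 and 1.68 ± 1.04 for Cd74 (± SE, adjusted p = 0.9996 in edgeR for each), with 0.33 ± 0.29 for H2-DMa and 0.61 ± 0.62 for H2-DMb1. The right retina, without class II chain reads, then stands alone for that animal. Without all 5 retinas under 10000 genes, which leaves 3 Gpnmb+ animals, they were 2.55 ± 1.70, 0.83 ± 0.38, 1.43 ± 1.39 and 1.34 ± 0.95 in the same order, and the lowest adjusted p in edgeR among the 7 genes, all tested in that setting, was 0.674. Of the 7, H2-Ab1 and Ciita were higher at an unadjusted p below 0.05 there, where 4.77% of all genes were. Ciita was at 0 in every Gpnmb+ retina and passed the filter only through DBA/2J sums with reads, so its p is no support. H2-Ab1, H2-Eb1 and Cd74 changed sign in both settings, and edgeR called 0 genes of the whole table in each.

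Within DBA/2J, all 6 class II genes tested had a higher fitted level at 12 than at 6 months, and none passed the test. The mean of H2-Ab1 was 220 ± 69.6 CPM at 12 months and 143 ± 52.6 CPM at 6 months, and that of H2-DMb1 105 ± 29.6 and 66.7 ± 13.8 CPM (SD, n = 5 each). For H2-DMb1, 4 of 5 animals at 12 months lay above all 5 at 6 months, and for H2-Ab1 3 of 5. The log2 fold changes were 1.296 ± 1.60 for H2-Aa, 0.62 ± 0.51 for H2-Ab1, 1.33 ± 1.45 for H2-Eb1, 0.94 ± 0.98 for Cd74, 0.22 ± 0.22 for H2-DMa and 0.66 ± 0.61 for H2-DMb1 (± SE, adjusted p = 0.9999 in edgeR for each). Their median was 0.80, beside 0.01 over all genes, of which 50.6% were above 0. Since the genes of a retina move together, 6 of 6 is not 6 independent results.

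In this comparison of ages edgeR called 0 genes of 12977 (0%), and 0 of the 6 had an unadjusted p below 0.05, against 3.65% of all genes. DESeq2 called 151 genes (0.952%) and voomLmFit 5 (0.0379%), none of them a class II gene. In none of the 6 were the groups without overlap, against 1.43% of all genes upward and 1.02% downward. The 6 directions were the same in all 21 alternative fits of each gene, with values from 0.83 to 2.56 for H2-Aa, 0.67 to 1.86 for Cd74 and 0.01 to 0.35 for H2-DMa. The high end for the chains came without 6-month animal 1, the retina with the highest class II sum at that age. Leaving out the 5 retinas under 10000 genes, all of them Gpnmb+, gave 1 of the 7 genes an unadjusted p below 0.05 in edgeR. It was H2-DMb1 (0.67 ± 0.25, adjusted p = 0.441 in edgeR), where 4.21% of all genes were higher.

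The 6-month retinas had lower fitted levels than Gpnmb+ for 5 of the 6 genes, where 51.3% of all genes were above 0, and again none passed the test. This comparison shares its groups with the other 2, so its values are not independent of them. The log2 fold changes were -1.01 ± 1.59 for H2-Aa, -0.998 ± 0.52 for H2-Ab1, -2.10 ± 1.48 for H2-Eb1, -1.16 ± 0.99 for Cd74, 0.13 ± 0.22 for H2-DMa and -0.34 ± 0.60 for H2-DMb1 (± SE, adjusted p = 0.9999 in edgeR for each). EdgeR called 0 genes (0%), with 0 of the 6 and 3.77% of all genes below an unadjusted p of 0.05, while DESeq2 called 197 (1.12%), again Ciita among them (adjusted p = 2.924e-07), and voomLmFit 40 (0.303%) with no class II gene. No gene of the 6 was without overlap, against 0.878% of all genes upward and 0.239% downward. Without the left retina of Gpnmb+ animal 2 the values of the chains and Cd74 turned to 1.33, 0.29, 0.87 and 0.70, in the order given, with an adjusted p of 1 in edgeR.

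**Figure D3:**
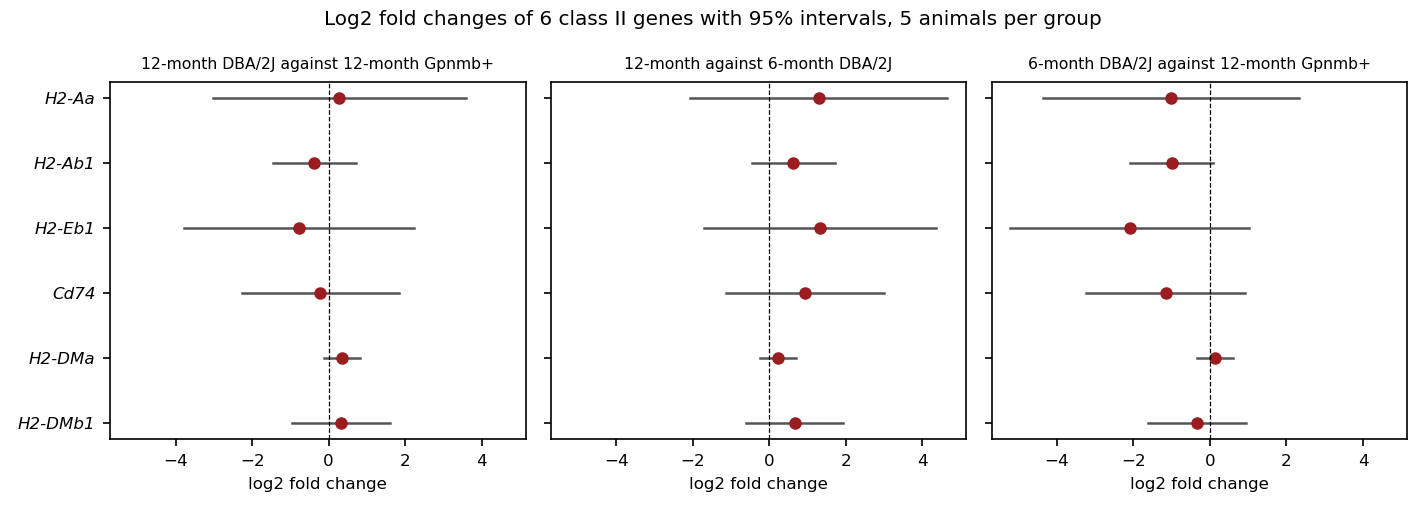
Log2 fold changes of the 6 genes tested in the 3 comparisons of groups, as points with 95% intervals from edgeR, 5 animals per group. Each interval includes 0, and those of H2-Aa and H2-Eb1 are the widest.

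By disease grade, class II levels overlapped between grades. Counts were summed by animal and grade, which gave 2 mild, 3 moderate and 2 severe sums. Cd74 stood at 25.3 and 80.6 CPM in mild, at 72.6, 182 and 306 CPM in moderate and at 55.9 and 212 CPM in severe sums. H2-Eb1 stood at 2.63 and 75.6 CPM, at 8.41, 56.0 and 57.3 CPM, and at 23.4 and 161 CPM in the same order. Each grade spanned low and high values for both genes, and H2-Aa was both at its lowest (0.776 CPM) and at its highest (156 CPM) among moderate sums.

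The trend over grade, in log2 units per step from mild to moderate to severe, was 0.23 ± 0.78 for H2-Aa, 0.08 ± 0.35 for H2-Ab1, 0.61 ± 0.63 for H2-Eb1, 0.66 ± 0.58 for Cd74, -0.24 ± 0.24 for H2-DMa and -0.21 ± 0.29 for H2-DMb1 (± SE, adjusted p = 0.9997 in edgeR for each). It was above 0 for 4 of the 6, and for 50.1% of all genes. Of 12019 genes edgeR called 0 (0%), 1.43% had an unadjusted p below 0.05 and 0 of the 6 did, while DESeq2 called 122 (0.798%) with none of the 6. Against Gpnmb+, edgeR called 0 of 15959 genes (0%) in each grade. DESeq2 called 598 (3.96%) in mild, 306 (2.08%) in moderate and 283 (1.83%) in severe, with none of the 6 other class II genes, and gave Ciita no adjusted p. The median over the 7 genes was 0.00 in mild, 0.28 in moderate and 0.11 in severe, beside -0.11, -0.02 and -0.06 over all genes. Values above 0 were found for 3, 5 and 4 of the 7, and for 44.2%, 47.6% and 46% of all genes. The mild median was the value of Ciita, at 0 CPM in both groups. Ciita was also among the values above 0 in moderate and severe. As it passed the filter only through sums with reads, these medians and numbers are no result about the set.

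Ciita passed the filter in the fit by grade through 2 of its sums, with 4.80 CPM in 1 of 3 moderate and 12.4 CPM in 1 of 2 severe sums and 0 elsewhere among the sums of these groups and Gpnmb+. It was the only class II gene below an unadjusted p of 0.05, in moderate (adjusted p = 0.579) and in severe (adjusted p = 0.982) against Gpnmb+ in edgeR, where 8.46% and 4.28% of all genes were. In mild, 5.42% of all genes and none of the 7 were. No class II gene was without overlap in any grade, against 4.12%, 2.51% and 5.68% of all genes upward and 2.35%, 1.13% and 1.47% downward in mild, moderate and severe. Without animal 5 no moderate sum, and without animal 3 no severe sum, held a Ciita read.

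The eyes of 1 animal often differed in class II level. Of the 9 animals with both retinas, 8 had a class II sum above 0 in both, and the larger sum was 1.80 times the smaller at the median and 4.77 times at most, in 12-month DBA/2J animal 5 (176 and 841 CPM). Among the animals with Cd74 reads in both eyes, Cd74 differed most in that one, at 26.96 CPM in the right, mild retina and 322 CPM in the left, moderate one, an 11.9-fold ratio. H2-Aa differed by more than 2-fold in each of the 6 animals with reads in both eyes. H2-DMa differed by 1.41-fold at the median and by more than 2-fold in 1 of 9, animal 4 of 12-month DBA/2J (621 and 1611 CPM).

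The more severely graded eye was not always the higher one. In 12-month DBA/2J animal 1 the moderate right retina had a class II sum of 571 CPM and the severe left one 184 CPM, whereas in animal 5 the moderate retina was above the mild one. In animals 3 and 4, whose eyes shared a grade, the sums were 1213 and 611 CPM, and 379 and 793 CPM. Animals 1 and 5 were the 2 with eyes of unlike grade, so no test over animals was made.

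**Figure D4:**
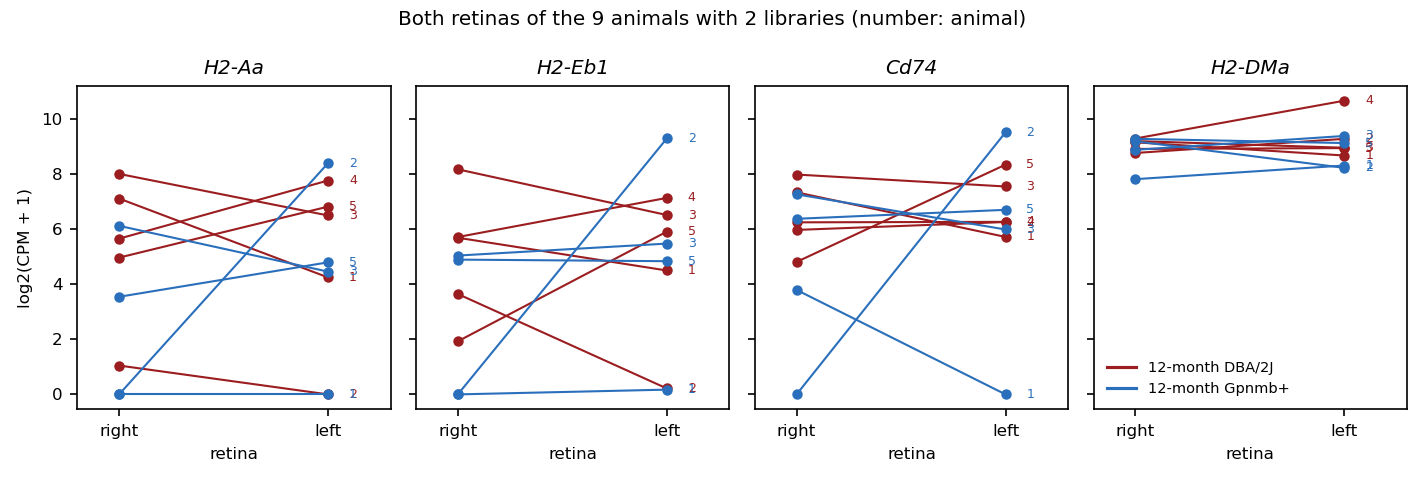
Level in the right and left retina of the 9 animals with both, as log2(CPM + 1), for 4 genes, with lines joining the eyes of an animal and its number at the right. The steepest lines for H2-Aa, H2-Eb1 and Cd74 belong to Gpnmb+ animal 2, from 0 to 334, 622 and 728 CPM, while the lines of H2-DMa are flatter.

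Across the 24 retinas the chains and Cd74 varied together. Spearman's correlation of CPM was 0.93 for H2-Aa and H2-Eb1, 0.87 for H2-Eb1 and Cd74, 0.86 for H2-Aa and Cd74, and 0.85 for H2-Ab1 and Cd74. It was 0.60 for Cd74 and Ciita, with Ciita at 0 in 19 retinas. H2-DMa stood apart from them, at 0.18 with H2-Aa and 0.11 with Cd74, and at 0.18 with its partner chain H2-DMb1. These are descriptions over retinas that share animals, and both genes of a pair share a library and its depth.

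Among the 8077 other genes whose log2 CPM averaged 2 or more, the one most like the class II sum by Spearman's correlation over the 24 retinas was H2-Ea-ps (0.92), the alpha chain gene of the E molecule, annotated as a polymorphic pseudogene in the C57BL/6J reference. It ranged over 0, 24.1 and 126 CPM in 12-month DBA/2J and over 0, 6.57 and 120 CPM in Gpnmb+ (lowest, median and highest), and the 6-month retinas had 0, 0, 3.24, 26.5 and 55.8 CPM. Its high retinas were thus found in all groups, as for H2-Eb1, whose protein pairs with that chain. Next came Map3k8, a kinase of inflammatory signalling (0.80), the condensin gene Ncapd3 (0.79), the nucleotide receptor gene P2ry6 (0.79) and the transcription factor gene Runx1 (0.75). By Pearson's correlation of log2 CPM they were Park7 (0.89), Tmem234 (0.89), P2ry6 (0.89), Tmbim1 (0.88) and Hspd1 (0.88), a measure in which the 1 retina with a sum of 0 has great weight.

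Markers of other cells that can express class II were measured in the same retinas. Of 8 markers of border-associated macrophages all had reads in at least 3 retinas, and their summed level ranged from 0 to 443 CPM in 12-month DBA/2J, from 0 to 160 CPM in Gpnmb+ and from 0.154 to 106 CPM at 6 months. Spearman's correlation of that sum with the class II sum was 0.66 over 24 retinas. In the left retina of Gpnmb+ animal 2 only 2 of the 8 had reads, Mrc1 at 99.8 CPM, its highest level of all, and Pf4 at 59.9 CPM. The highest marker sum was 443 CPM, from 6 of the 8, in the right retina of 12-month DBA/2J animal 1. Its class II sum was 571 CPM. The right retina of 12-month DBA/2J animal 4 had a class II sum of 379 CPM with a sum of 0 over these markers. Of 8 monocyte markers, cells that the sort against Ly6c is meant to remove, 7 had reads, led by Lyz2 with up to 2325 CPM, Chil3 was at 0 in all retinas and Ly6c2 reached 0.382 CPM. Their sums were 309 to 2337 CPM in 12-month DBA/2J, 15.3 to 739 CPM in Gpnmb+ and 50.3 to 365 CPM at 6 months, with a correlation of 0.63. The part of these cells in the class II result was not tested.

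Of 10 dendritic cell markers Ccr7 was at 0 in all 24 retinas and Cd209a reached 0.960 CPM. Zbtb46 had reads in 15 retinas, with up to 116 CPM, and Flt3 in 16, with up to 7.03 CPM. Clec9a and Xcr1 reached 19.7 and 16.6 CPM. The sums of the 10 markers were mostly Fscn1 and Batf3. They were 53.0 to 284 CPM in 12-month DBA/2J, 17.4 to 205 CPM in Gpnmb+ and 205 to 307 CPM at 6 months. Their correlation with the class II sum was -0.39, with Batf3 alone at 0.50 and Fscn1 alone at -0.36. Of the B cell markers, Ms4a1 and Pax5 reached 0.202 and 0.083 CPM. Ighm had reads in all 24 retinas and Cd79b in 19, so their sums were 208 to 560, 94.1 to 586 and 384 to 566 CPM in the same order of groups, with a correlation of -0.05. Of 8 T and NK cell markers Cd3g, Trac, Nkg7 and Ncr1 were at 0 in all retinas and no sum reached 1 CPM. The 6 rod markers, a sign of photoreceptor RNA, summed to 227 to 3714, 211 to 14631 and 194 to 1871 CPM, with a correlation of 0.38. The microglia markers had a correlation of -0.00 with the class II sum. The part of rod RNA in the class II result was not tested.

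**Figure D5:**
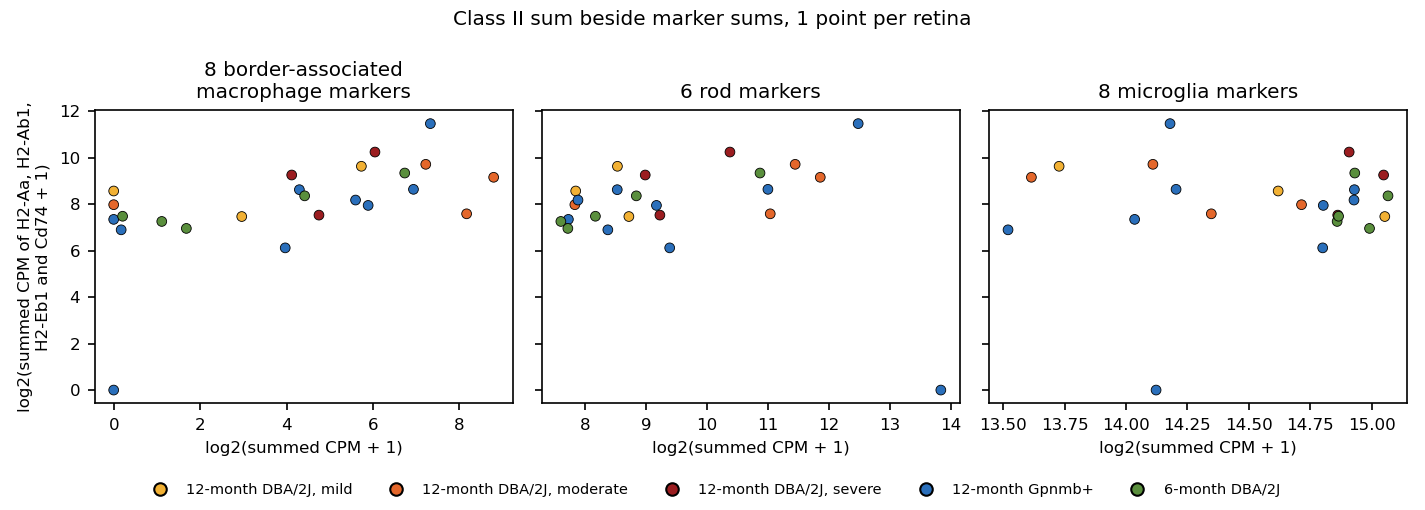
Class II sum (H2-Aa, H2-Ab1, H2-Eb1 and Cd74) against the summed level of markers of border-associated macrophages, rods and microglia, both as log2(summed CPM + 1), with 1 point per retina. Retinas with more border-associated macrophage marker RNA tended to have a higher class II sum (Spearman 0.66), and retinas at a marker sum of 0 still reached 379 CPM.

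The rest of the class II pathway was described by 4 lists. All 14 genes of endosomal antigen processing were tested. In 12-month DBA/2J against Gpnmb+ 8 had a higher and 1 had a lower level by an unadjusted p below 0.05, with a median log2 fold change of 0.54 beside 0.05 over all genes and no call after adjustment. Among all genes 2.76% were higher and 2.45% lower by that rule. Ctss, the protease that removes the invariant chain, was at 12950 ± 2897 CPM in DBA/2J and 8237 ± 1268 CPM in Gpnmb+ (SD, n = 5 each), a log2 fold change of 0.65 ± 0.15 (adjusted p = 0.323 in edgeR), and 4 of 5 DBA/2J animals lay above all Gpnmb+ animals. Ctsz (0.70 ± 0.17, adjusted p = 0.414), Ctsd (0.49 ± 0.14) and Ctsl (0.84 ± 0.24, both adjusted p = 0.574) were other cathepsins with the smallest p in edgeR. March1, the ubiquitin ligase that removes class II molecules from the surface, was the lower one, at 96.6 ± 17.2 and 143.6 ± 11.7 CPM, with all 5 DBA/2J animals below all 5 of Gpnmb+, as for 0.285% of all genes (log2 fold change -0.57 ± 0.26, adjusted p = 0.934 in edgeR). Without the 5 retinas under 10000 genes 6 of the 14 were higher and 0 lower by the same rule (4.77% and 2.63% of all genes), and without the left retina of Gpnmb+ animal 2 also 6 and 0 (2.3% and 1.79% of all genes), with medians of 0.44 and 0.61 beside 0.05 and 0.19 over all genes. March1 was thus no longer below 0.05 in either setting. The setting without that left retina was chosen after seeing the data, and so was the use of both settings on this list. Monocyte marker sums were 309 to 2337 CPM in these DBA/2J retinas and 15.3 to 739 CPM in Gpnmb+, and their part in the levels of the processing genes was not tested.

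Against 6 months, 5 of the 14 processing genes had a higher level and none a lower one by an unadjusted p below 0.05, as did 2.1% and 1.55% of all genes, with a median of 0.19 beside 0.01 and no call. They were Ctsl (0.83 ± 0.24), Ctss (0.50 ± 0.15), Ctsh (0.65 ± 0.20), Ifi30, a lysosomal thiol reductase (1.00 ± 0.31, adjusted p = 0.720 in edgeR for these 4), and Ctsz. In 6-month DBA/2J against Gpnmb+, Ctsd was the 1 gene higher (0.51 ± 0.14, adjusted p = 0.782 in edgeR) and 0 were lower, where 2.2% and 1.57% of all genes were. By grade against Gpnmb+ 2, 5 and 6 of the 14 had higher levels in mild, moderate and severe, 1, 0 and 0 had lower ones by the same rule, and none of them was called. Of all genes 2.67%, 4.75% and 3.08% were higher and 2.75%, 3.71% and 1.2% lower in these grades. Without the 5 retinas under 10000 genes the numbers by grade were 1, 4 and 3 higher and 2, 0 and 0 lower, where 2.24%, 4.42% and 2.3% of all genes were higher and 3.62%, 4.55% and 1.56% lower. Without the left retina of Gpnmb+ animal 2 severe also had 3 higher, where 2.92% of all genes were.

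The 17 genes of class II transcription and interferon gamma signalling were all tested in the comparisons of groups, and none was called. In 12-month DBA/2J against Gpnmb+ 0 were below an unadjusted p of 0.05 (median log2 fold change 0.11). Spi1, the gene of the myeloid factor PU.1, was lower at 12 than at 6 months (-0.94 ± 0.39, adjusted p = 0.9999 in edgeR), at 103 ± 18.4 and 198 ± 93.4 CPM. Nfya, a subunit of the Y box factor, was higher at 6 months than in Gpnmb+ (2.08 ± 0.88, adjusted p = 0.9999 in edgeR), at 20.4 ± 11.6 and 4.80 ± 3.74 CPM. Each was the 1 gene of the list below an unadjusted p of 0.05 in its comparison, where 1.55% of all genes were lower and 2.2% higher. Nfya was also the 1 gene higher by that rule in mild against Gpnmb+ (2.76 ± 1.296, adjusted p = 0.7946 in edgeR), where 2.67% of all genes were, and none was in moderate or severe. Without the left retina of Gpnmb+ animal 2, 0 genes of the list were higher by that rule at 6 months or in mild. Of all genes 2.12% and 2.59% were, and this setting was chosen after seeing the data. Without the 5 retinas under 10000 genes, 1 was higher at 6 months and 0 in mild, where 3.64% and 2.24% of all genes were. There 1 was also lower at 12 than at 6 months and 1 in moderate, where 3.59% and 4.55% of all genes were. In the trend over grade Irf1 was the 1 gene higher (0.99 ± 0.40 per step, adjusted p = 0.9997 in edgeR), where 0.815% of all genes were.

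Of the accessory class II genes H2-Oa, H2-Ob and H2-DMb2 were tested and none was below an unadjusted p of 0.05 in the main fit of any comparison. H2-Ob, a chain of the H2-DM inhibitor H2-DO, was lower in all 5 animals at 12 months than in all 5 at 6 months, as were 1.02% of all genes, at 61.5 ± 13.4 and 105 ± 17.3 CPM (SD, n = 5 each; log2 fold change -0.77 ± 0.43, adjusted p = 0.9999 in edgeR). H2-Ob was named after its values were seen. Leaving out the 5 retinas under 10000 genes, all of them Gpnmb+, gave 1 of the 3 genes an unadjusted p below 0.05 in edgeR. That gene was lower at 12 than at 6 months, where 3.59% of all genes were. H2-Eb2 had reads in 3 retinas and at most 0.609 CPM. Of 9 costimulatory genes 5 were tested in the comparisons of groups, with 0 below an unadjusted p of 0.05. By grade 6 were tested, and 1, Cd274, was lower in mild than in Gpnmb+ by that rule (adjusted p = 0.7946 in edgeR), where 2.75% of all genes were, at 0.0681 ± 0.0963 and 19.03 ± 18.5 CPM (SD, n = 2 and 5). In moderate and severe 0 were below it. The median log2 fold change of these genes in mild was -1.32, beside -0.11 over all genes. Cd86 had reads in all 24 retinas (median 234 CPM) and Cd40 in 6, while Pdcd1lg2 and Tnfsf4 had none. In the trend over grade Icosl (1.11 ± 0.48 per step) and Cd274 were higher at an unadjusted p below 0.05 (adjusted p = 0.9997 in edgeR for both), where 0.815% of all genes were. Cd274 stood at 37.6 ± 28.6 CPM in severe and at 0.0662 ± 0.0936 CPM in mild sums (SD, n = 2 each), a level too low for a fold.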

How the data were processed

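RNA of sorted microglia was measured in 24 retinas of 15 animals. The deposited tables, 1 per retina, give expected counts per gene, estimated by the authors' pipeline, and TPM, which the authors' pipeline scaled by gene length and library total, as the file headers name them. According to the submitters' processing notes the tools included Salmon 1.4.0, R 4.0.3, DESeq2 1.30.1 and the mm10 build, with no role given for any; whether counting used strand is not given in the sources used here. A series-wide table of 24 further columns was not used. Of 47729 gene IDs 47224 matched a symbol.

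Expected counts were rounded and summed over the eyes of an animal (5 sums per group), or by animal and grade (17 sums in all, 7 of them of graded animals). Animals 1 and 5 of 12-month DBA/2J gave 2 sums each, taken as independent. Genes were kept by edgeR's filterByExpr (minimum count 10, minimum total 15), scaled by TMM and fitted over all sums with edgeR 4.0.16's quasi-likelihood test in R 4.3.3, with Benjamini-Hochberg adjustment at 0.05. CPM per retina are counts per 1000000 of the library total, and CPM of sums are scaled by TMM. Alternatives were DESeq2 1.42.0, voomLmFit of limma 3.58.1 with animal as random effect, RLE scaling, other filters, single retinas, a replicate block, and leaving out animals or retinas. The alternative without the left retina of Gpnmb+ animal 2 was chosen after seeing the data.

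The members and gene lists were chosen with earlier results of these data known. Named genes are all members, the list genes with the smallest p in a comparison or at 0 in all retinas, and the 5 genes most like the class II sum by each correlation; further list genes (March1, H2-Ob, Cd86 and others) were named after their values were seen. The labels do not say how animals were bred or processed, so p-values measure the spread between these animals, which may be partly technical. All 91 pairs of retinas within a group differed beyond sampling noise (smallest chi-square per degree of freedom 81.8; at most 0.423% identical values). A count of 0 allows up to 3 counts, for counting error only. The fitting script was tested on simulated data.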

Additional observations from a re-analysis of the deposited data

Results flagged for a closer look

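In 8 of the 21 sets examined (7 genes in 3 groups of retinas), 1 retina lay far from the others by Dixon's criterion. The left retina of Gpnmb+ animal 2 accounted for 4 of these. Among the 9 Gpnmb+ retinas it stood at 334 CPM for H2-Aa where the next retina had 68.3 CPM, at 1151 CPM for H2-Ab1 (next 237 CPM), at 622 CPM for H2-Eb1 (next 43.3 CPM) and at 728 CPM for Cd74 (next 152 CPM). The genes share this library, so the 4 are not independent. The criterion's chance rate of about 1 set in 20 is for independent, normally distributed values. Here it was applied to skewed CPM, with retinas without reads in some sets and with eyes that share an animal. The chance rate in these sets is therefore not known, and the number of sets flagged is a description only.

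The retina of 6-month DBA/2J animal 1 stood apart from the other 4 at that age for H2-Aa, at 111 CPM (next 30.2 CPM), and for Ciita, at 8.68 CPM (next 0.111 CPM). Among the 10 retinas of 12-month DBA/2J, the right, severe one of animal 3 had 286 CPM of H2-Eb1 (next 139 CPM). The left, mild one of animal 4, the shallowest library of its group with 1706775 counts, had 1611 CPM of H2-DMa (next 621 CPM).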

How the results depend on the processing

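No class II gene passed the adjusted threshold of 0.05 under any alternative of the 7 comparisons, except that DESeq2 called 1, Ciita, in 12-month DBA/2J and 1, again Ciita, in 6-month DBA/2J against Gpnmb+, where Gpnmb+ was at 0. All 6 directions of 12-month against 6-month DBA/2J held under each alternative. The values below are log2 fold changes whose sign turned, and beyond the retinas left out the cause was not tested. Without the 5 retinas under 10000 genes, 12-month DBA/2J against Gpnmb+ gave 0.83 for H2-Ab1, 1.43 for H2-Eb1 and 1.34 for Cd74, 6-month DBA/2J gave 1.26 for H2-Aa, 0.20 for H2-Ab1, 0.099 for H2-Eb1, 0.39 for Cd74 and -0.13 for H2-DMa, mild 0.55 for H2-Ab1, 0.75 for H2-Eb1 and 0.054 for Cd74, moderate 0.99 for H2-Ab1 and 0.82 for H2-Eb1 and severe 0.73 for H2-Ab1, 1.99 for H2-Eb1, 1.39 for Cd74 and -0.19 for H2-DMa. Without the left retina of Gpnmb+ animal 2 the values were 0.94 for H2-Ab1, 2.23 for H2-Eb1 and 1.68 for Cd74 in 12-month DBA/2J, 1.33 for H2-Aa, 0.29 for H2-Ab1, 0.87 for H2-Eb1 and 0.70 for Cd74 in 6-month DBA/2J, 0.67 for H2-Ab1, 1.56 for H2-Eb1 and 0.40 for Cd74 in mild, 1.11 for H2-Ab1 and 1.63 for H2-Eb1 in moderate and 0.85 for H2-Ab1, 2.80 for H2-Eb1 and 1.73 for Cd74 in severe. With retinas and a random animal effect (voomLmFit) they were 0.75 for H2-Ab1, 2.71 for H2-Eb1 and 2.46 for Cd74 in 12-month and 1.43 for H2-Aa, 0.19 for H2-Ab1, 1.26 for H2-Eb1, 1.060 for Cd74 and 0.69 for H2-DMb1 in 6-month DBA/2J. With each retina as a replicate 12-month DBA/2J gave 0.028 for H2-Ab1 and 0.17 for Cd74, and with the deeper retina of each animal -0.34 for H2-Aa. Without retinas under 20% of the median total, H2-Aa was at -0.073 in 12-month DBA/2J and at -0.71 in mild. In mild, H2-Aa was also at -0.23 with DESeq2, -0.23 with RLE scaling, -0.058 with at least 50 counts in 5 sums and -0.033 with the 2 groups alone. In severe, H2-DMb1 was at -0.044 with DESeq2 and -0.043 with RLE scaling.

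The animal numbers of the labels do not pair the groups: deviations of same-numbered animals correlated between -0.0392 and 0.0841. With that number as a replicate block, class II calls stayed at 0, and signs turned to 0.094 for H2-Ab1, 1.03 for H2-Eb1 and 0.80 for Cd74 in 12-month DBA/2J, 0.063 for H2-DMb1 in 6-month DBA/2J, 0.059 for H2-Ab1, 1.27 for H2-Eb1 and 0.84 for Cd74 in mild, 0.088 for H2-Ab1 and 0.47 for H2-Eb1 in moderate, 0.067 for H2-Ab1, 1.18 for H2-Eb1 and 0.58 for Cd74 in severe and -0.54 for H2-Aa in the trend over grade.

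Leaving out 1 animal in turn, the genes with a change of sign ranged as follows. In 12-month DBA/2J against Gpnmb+ the range was -0.12 to 2.33 for H2-Aa, -0.57 to 0.64 for H2-Ab1, -1.50 to 1.90 for H2-Eb1 and -0.52 to 1.35 for Cd74. In 6-month DBA/2J against Gpnmb+ the range was -2.22 to 1.04 for H2-Aa, -1.22 to 0.013 for H2-Ab1, -2.92 to 0.58 for H2-Eb1, -2.02 to 0.41 for Cd74 and -0.65 to 0.28 for H2-DMb1. In mild the range was -1.12 to 1.99 for H2-Aa, -1.38 to 0.35 for H2-Ab1, -5.32 to 1.22 for H2-Eb1, -2.55 to 0.054 for Cd74 and -0.0402 to 0.95 for H2-DMa. In moderate the range was -0.16 to 2.55 for H2-Aa, -0.48 to 0.81 for H2-Ab1, -1.69 to 1.297 for H2-Eb1, -0.22 to 1.90 for Cd74, 0 to 8.30 for Ciita and -0.12 to 0.80 for H2-DMb1. In severe the range was -1.65 to 2.51 for H2-Aa, -1.49 to 0.55 for H2-Ab1, -2.17 to 2.48 for H2-Eb1, -1.41 to 1.42 for Cd74, 0 to 10.65 for Ciita, -0.065 to 0.24 for H2-DMa and -0.65 to 0.73 for H2-DMb1. In the trend the range was -0.43 to 0.58 for H2-Aa, -0.23 to 0.38 for H2-Ab1, -0.28 to 2.15 for H2-Eb1 and -0.43 to 0.0099 for H2-DMa. The Ciita values against groups at 0 depend on the model. With 5 animals per group, and 2 or 3 sums per grade, and with 95% intervals of several log2 units for the chains, the number of animals and the spread between them limit what could be detected.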

Other observations

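Nfya, the Y box factor subunit described above for 6 months, was also higher in all 5 animals of 12-month DBA/2J than in all 5 of Gpnmb+, as were 0.832% of all genes, at 16.5 ± 6.34 and 4.80 ± 3.74 CPM (SD, n = 5 each), with a log2 fold change of 1.77 ± 0.87 and an adjusted p of 0.9754 in edgeR. It was named here after its values were seen. H2-DMb2, the near copy of H2-DMb1, lay higher in 4 of 5 animals at 12 months than in all 5 at 6 months, at 65.6 ± 11.2 and 49.0 ± 6.73 CPM (log2 fold change 0.42 ± 0.43, adjusted p = 0.9999 in edgeR).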
